A study of Mus musculus with 16 samples.

Results

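Semaphorins are ligands that guide migrating cells and tune immune cell contacts, plexins are their receptors, and neuropilins are co-receptors that join plexins or growth factor receptors. The 10 genes described here are 4 membrane-bound class 4 semaphorins (Sema4a, Sema4b, Sema4c and Sema4d), 4 plexins (Plxna1, Plxna2, Plxnb2 and Plxnd1) and the neuropilins Nrp1 and Nrp2. They were named by gene symbol among the 19937 genes of the array annotation, and were chosen with earlier results of these data known. Counts among them, set beside shares of all genes, therefore describe this list and test nothing. Each gene was measured by its brightest probe set, which was the only one except for Sema4d with 2. Expression was measured on 16 Affymetrix arrays of bone-marrow-derived macrophages, which are grown in culture from mouse marrow precursors. All cells came from the 129sv background and were wild type (WT) or NFAT5 knockout (KO), each unstimulated or stimulated with LPS, with 4 arrays per group. NFAT5 is a transcription factor known for the response to hypertonic stress. LPS is lipopolysaccharide of the bacterial outer membrane, which macrophages sense through Toll-like receptor 4. The sources used here do not give the LPS dose and duration, the kind of knockout allele or the age of the mice. They do not say either that the arrays of a group are separate mice, so p-values reflect the spread among these arrays alone, and that spread may be technical.

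A plexin holds an intracellular domain that switches off small GTPases of the Ras and Rap families, so that ligand binding loosens adhesion and reshapes the cytoskeleton. Class 4 semaphorins stay on the cell surface unless they are shed by proteases, and in the immune system Sema4a and Sema4d are known for signals between antigen-presenting cells and lymphocytes. Neuropilins have short cytoplasmic tails and bind class 3 semaphorins and members of the VEGF family.

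The arrays carried the marks of macrophages. The 9 measured macrophage markers averaged between 12.03 and 12.40 on the log2 scale of the arrays in every sample, and all 9 lay above the median gene (7.11) in each group. Endothelial markers, which matter here because endothelial cells also use Nrp1 and Plxnd1, averaged 6.06 to 6.55 in unstimulated and 6.66 to 6.86 in LPS-stimulated samples of both genotypes, with 1 of 6 above the median gene. That gene was Kdr, a VEGF receptor. Stromal markers averaged 6.31 to 6.71 without and 6.86 to 7.12 with LPS, dendritic cell markers 6.05 to 6.54, granulocyte markers 6.25 to 6.63, lymphocyte markers 5.18 to 5.51, erythroid and megakaryocyte markers 6.96 to 7.88, and mast cell and basophil markers 4.79 to 5.03. Of the 8 stromal markers, Pdgfrb was the one called with LPS (from 6.93 to 10.81 in wild-type and from 6.76 to 9.91 in KO cells), and the other 7 were not. The part of other cells in the results below was not tested, and fewer cells of a type cannot be told apart from less RNA per cell. Sex-linked transcripts differed between genotypes. Y-linked Kdm5d was above Xist in 6 of 8 KO arrays and in none of the 8 wild-type arrays, and the remaining KO arrays were those numbered 4.

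Levels are given as log2 values after RMA, the array normalization used by the authors. Levels of different probe sets cannot be set against each other, so each gene is compared only with itself.

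**Figure D1:**
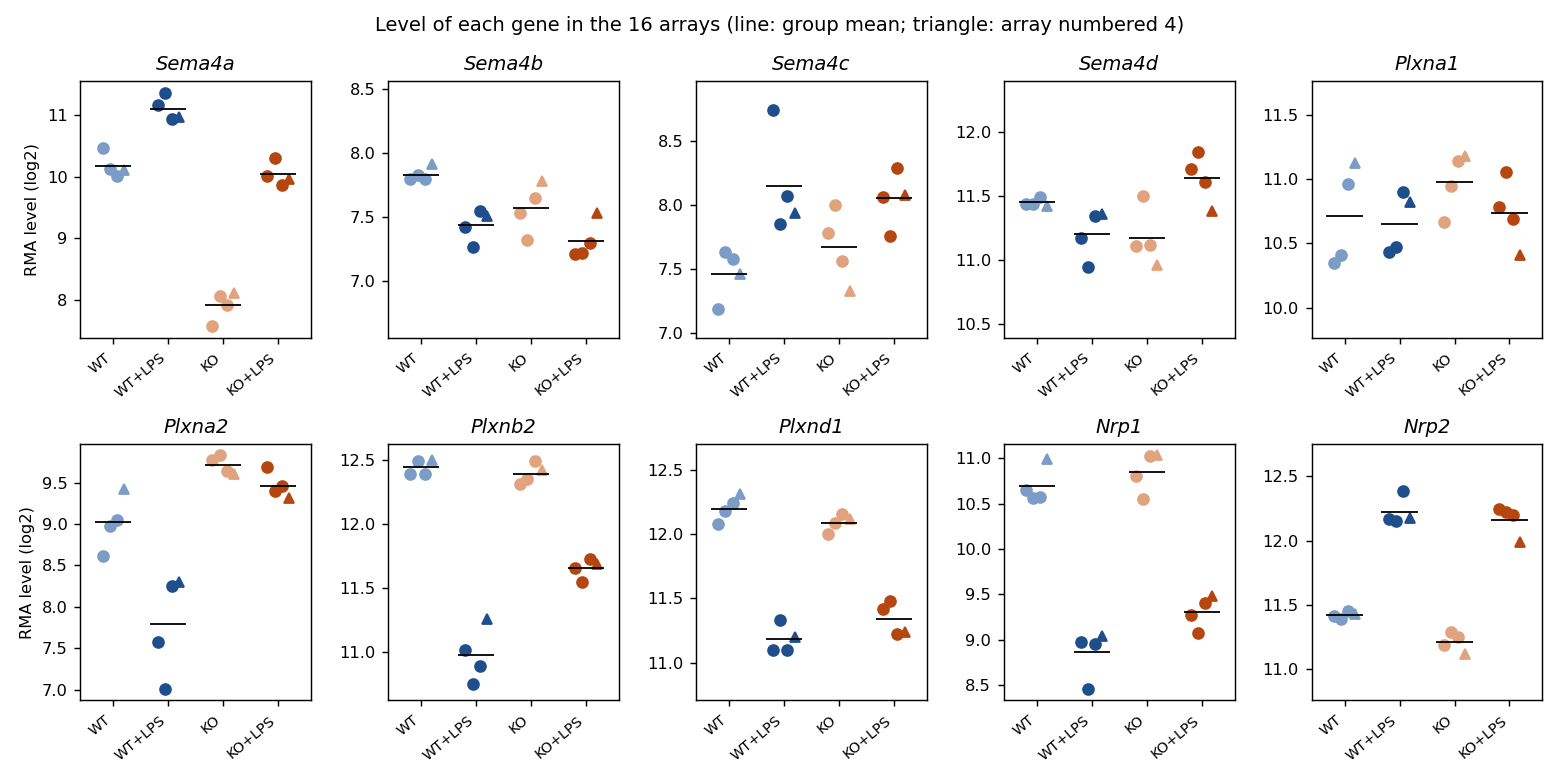
RMA level (log2, vertical axis) of the 10 genes in the 4 groups, 1 point per array with triangles for the arrays numbered 4 and a line at the group mean; each panel has its own axis range. Sema4a lies between 7.58 and 8.11 in unstimulated KO arrays and at 9.87 or above in all others, and Plxna2 is at 8.30 or below only in wild-type arrays with LPS.

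The genotypes differed with LPS, by the linear model described with the results, in Sema4a, Plxna2 and Plxnb2. Their RefSeq promoter windows (build GRCm38.p6) are printed for that reason, from 250 bases before the start site to 50 after it, 5′ to 3′ on the gene's strand. Where a gene has several windows, the one with the most CG dinucleotides is shown (14 for Sema4a, 25 for Plxna2 and 27 for Plxnb2). Capitals mark matches to the NF-kB motif written as GGGNNNNNCC, searched on both strands.
Sema4a, chr3:88458835-88459134, minus strand: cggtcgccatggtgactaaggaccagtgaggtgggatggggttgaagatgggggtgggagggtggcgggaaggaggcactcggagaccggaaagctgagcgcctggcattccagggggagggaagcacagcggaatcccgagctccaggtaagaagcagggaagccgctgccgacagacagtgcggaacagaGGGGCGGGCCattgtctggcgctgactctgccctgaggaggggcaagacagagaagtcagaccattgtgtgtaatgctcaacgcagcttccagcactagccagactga
Plxna2, chr1:194619579-194619878, plus strand: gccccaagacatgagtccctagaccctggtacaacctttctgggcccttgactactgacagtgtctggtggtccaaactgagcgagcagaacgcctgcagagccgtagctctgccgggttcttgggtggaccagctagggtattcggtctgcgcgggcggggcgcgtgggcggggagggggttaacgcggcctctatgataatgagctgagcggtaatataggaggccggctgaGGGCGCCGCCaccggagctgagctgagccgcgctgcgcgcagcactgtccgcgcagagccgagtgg
Plxnb2, chr15:89180739-89181038, minus strand: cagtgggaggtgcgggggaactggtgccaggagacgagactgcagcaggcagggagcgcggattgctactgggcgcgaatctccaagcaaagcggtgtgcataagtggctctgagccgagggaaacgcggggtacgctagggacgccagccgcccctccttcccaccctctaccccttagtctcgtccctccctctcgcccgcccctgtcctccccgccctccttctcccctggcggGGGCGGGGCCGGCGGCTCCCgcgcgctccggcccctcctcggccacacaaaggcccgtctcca
The matches began 58 bases before the start site in Sema4a (position -58), at -16 in Plxna2, and at -13 and -3, side by side on opposite strands, in Plxnb2. Of 17 windows listed for 9 of the genes, 14 held the motif, and so did 50.8% of all 32851 windows of the same 300 bases. Plxna1 had no entry. The letters TGGAAA, the core shared by NFAT proteins and the opening of the tonicity element that NFAT5 binds, were found in 21.4% of all windows and in 1 of these 17, a window of Sema4d at position 20. These matches are a description of the letters and not of binding, and windows without a match only lack these letters.

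The first comparison was LPS against unstimulated in each genotype. In wild-type macrophages Sema4a, Sema4c and Nrp2 rose and Sema4b, Plxna2, Plxnb2, Plxnd1 and Nrp1 fell. Thus 3 of 10 genes rose, where 14% of all genes did, and 5 fell, where 16.8% did. All 10 genes were brighter than the median gene. In a fit of the 9969 genes at or above the median gene, 2328 rose and 2948 fell. The median log2 difference was -0.32 over the 10 genes and 0.06 over all genes. In KO macrophages Sema4a, Sema4d and Nrp2 rose and Plxnb2, Plxnd1 and Nrp1 fell, so that 3 of 10 rose (12% of all genes) and 3 fell (12.7% of all genes). The medians there were -0.25 and 0.01. Among the same 9969 genes, 2329 rose and 2168 fell in KO cells. A gene was called, and is said to rise or fall, at an adjusted p under 0.05 in limma over all 19937 genes.

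Sema4a, a ligand of plexin-D1 and plexin-B receptors that costimulates T cells, was the class 4 semaphorin that LPS raised in both genotypes. In unstimulated wild-type arrays 1 to 4 its level was 10.47, 10.13, 10.01 and 10.11, and with LPS it was 11.16, 11.36, 10.94 and 10.96. In unstimulated KO arrays it was 7.58, 8.06, 7.92 and 8.11, and with LPS 10.01, 10.31, 9.87 and 9.96. Every LPS array lay above every unstimulated array of its genotype, and the range of the KO arrays with LPS overlapped that of the wild-type arrays without it. The rise was 0.92 ± 0.137 (SE) in wild-type cells, or 1.90-fold (limma adjusted p = 2.90e-05), and 2.12 ± 0.137 in KO cells, or 4.35-fold (adjusted p = 1.34e-09).

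Sema4d, also named CD100, binds plexin-B receptors and, on lymphocytes and myeloid cells, Cd72. Its levels in wild-type arrays were 11.44, 11.44, 11.49 and 11.42 without LPS and 11.17, 10.95, 11.34 and 11.36 with it. In KO arrays they were 11.11, 11.50, 11.12 and 10.96 without LPS and 11.71, 11.84, 11.61 and 11.38 with it. The wild-type groups did not overlap, yet their difference of -0.25 ± 0.123 did not pass the test (adjusted p = 0.147). The KO groups overlapped through unstimulated array 2 and LPS array 4, and their rise of 0.46 ± 0.123 did pass (adjusted p = 0.00803). A second, dimmer probe set of Sema4d averaged 7.71 ± 0.05 (SD, n = 4) without and 7.72 ± 0.12 with LPS in KO cells, and with the mean of both probe sets the rise was 0.23 and not called (adjusted p = 0.0701).

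Sema4b and Sema4c are the other class 4 ligands, and both were called in wild-type cells alone. Sema4b fell by 0.40 on the log2 scale in wild-type cells (SE 0.104), from a range of 7.80 to 7.91 to a range of 7.27 to 7.55 (adjusted p = 0.00595). In KO cells its difference was -0.26 ± 0.104, with overlapping groups (7.32 to 7.78 and 7.21 to 7.53; adjusted p = 0.0804). Sema4c, a ligand of plexin-B2, rose by 0.69 ± 0.181 in wild-type cells, with ranges of 7.19 to 7.63 without LPS and 7.85 to 8.74 with it (adjusted p = 0.00625), and wild-type LPS array 1 held the highest value. In KO cells the ranges of 7.33 to 8.0 and 7.76 to 8.29 overlapped, with a difference of 0.38 ± 0.181 (adjusted p = 0.154).

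Among the receptors, Plxnb2, which binds Sema4c and Sema4d, fell in both genotypes. In wild-type arrays it stood at 12.39, 12.49, 12.39 and 12.50 without LPS and at 11.02, 10.75, 10.89 and 11.26 with it. In KO arrays it stood at 12.31, 12.35, 12.49 and 12.42 without LPS and at 11.66, 11.55, 11.73 and 11.69 with it. The 2 unstimulated groups overlapped, and below them the KO arrays with LPS all lay above the wild-type arrays with LPS. The fall was 2.75-fold in wild-type cells (-1.46 ± 0.0977, adjusted p = 1.31e-09) and 1.66-fold in KO cells (-0.73 ± 0.0977, adjusted p = 1.10e-05).

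Plxna2 is a receptor for class 6 semaphorins and, with neuropilins, for class 3 semaphorins. Its wild-type arrays read 8.61, 8.98, 9.05 and 9.42 without LPS and 7.58, 7.01, 8.25 and 8.30 with it. Its KO arrays read 9.77, 9.83, 9.64 and 9.61 without LPS and 9.69, 9.40, 9.46 and 9.31 with it. The wild-type arrays with LPS were the lowest and the most spread of the 4 groups (SD 0.61, against 0.10 to 0.33 in the others). LPS lowered Plxna2 by 2.35-fold in wild-type cells (-1.23 ± 0.220, adjusted p = 2.13e-04), whereas in KO cells the difference was -0.25 ± 0.220 with overlapping groups (adjusted p = 0.533).

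Plxnd1, the receptor of Sema3e and a receptor of Sema4a, fell in both genotypes. In wild-type cells it went from 12.08, 12.18, 12.24 and 12.31 to 11.10, 11.33, 11.10 and 11.20, a fall of 2.03-fold (-1.02 ± 0.0891, adjusted p = 4.22e-08). In KO cells it went from 12, 12.09, 12.16 and 12.12 to 11.42, 11.48, 11.22 and 11.24, a fall of 1.69-fold (-0.75 ± 0.0891, adjusted p = 2.77e-06). Neither pair of groups overlapped. Plxna1, which dendritic cells use as a receptor for Sema6d together with Trem2 and its adaptor Tyrobp, was not called in any comparison. Its arrays ranged from 10.35 to 11.13 and from 10.43 to 10.90 in wild-type cells without and with LPS, and from 10.67 to 11.18 and from 10.41 to 11.06 in KO cells, with log2 differences of -0.06 ± 0.181 (adjusted p = 0.845) and -0.25 ± 0.181 (adjusted p = 0.412).

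The 2 neuropilins moved in opposite directions with LPS. Nrp1, the co-receptor of Sema3a and of VEGF-A, read 10.65, 10.56, 10.57 and 10.99 in wild-type arrays without LPS and 8.98, 8.46, 8.95 and 9.04 with it. In KO arrays it read 10.80, 10.55, 11.02 and 11.03 without LPS and 9.27, 9.07, 9.40 and 9.48 with it. Stimulated arrays lay below unstimulated ones in both genotypes, without overlap. The falls were 3.57-fold (-1.83 ± 0.145, adjusted p = 1.13e-08) and 2.92-fold (-1.55 ± 0.145, adjusted p = 1.42e-07).

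Nrp2, the co-receptor of Sema3f and of VEGF-C, read 11.41, 11.39, 11.45 and 11.43 in wild-type arrays without LPS and 12.17, 12.15, 12.39 and 12.18 with it. In KO arrays it read 11.19, 11.29, 11.25 and 11.12 without LPS and 12.25, 12.22, 12.20 and 11.99 with it. All 8 stimulated arrays lay above all 8 unstimulated ones. The rises were 1.74-fold in wild-type cells (0.80 ± 0.0835, adjusted p = 4.30e-07) and 1.93-fold in KO cells (0.95 ± 0.0835, adjusted p = 6.44e-08).

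**Figure D2:**
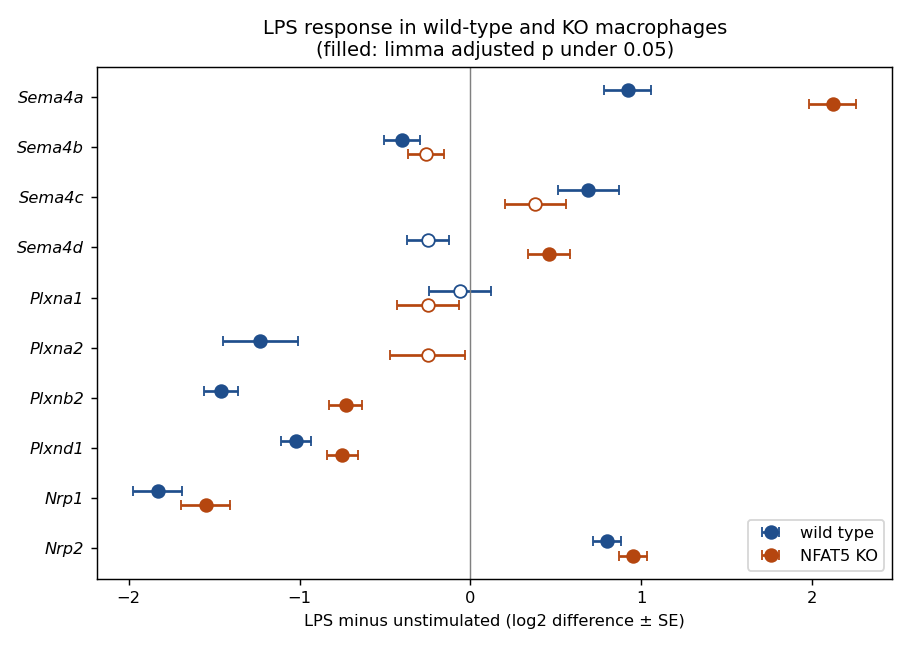
Log2 difference between LPS-stimulated and unstimulated macrophages (horizontal axis, ± SE from the linear model) of each gene in wild-type and KO cells, 4 arrays against 4; filled points passed an adjusted p under 0.05. Nrp1, Plxnd1 and Plxnb2 lie below 0 and Sema4a and Nrp2 above 0 in both genotypes, and Plxna2 is filled in wild-type cells only.

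The second comparison was KO against wild type without LPS. In the KO arrays except number 4 Kdm5d was above Xist, as in no wild-type array. Genotype and sex cannot be told apart in those arrays. Sema4a was the gene of the 10 that passed, 4.80-fold lower in KO cells (-2.26 ± 0.137, adjusted p = 2.35e-08). Thus 1 of 10 genes was lower, where 0.863% of all genes were, and 0 of 10 were higher, where 0.14% of all genes were (limma; at an unadjusted p under 0.05, 4 more genes of the 10 were lower or higher). In the fit of the 9969 genes at or above the median gene, 199 were lower and 22 higher in KO cells. For Sema4a the 4 differences between arrays of the same number were -2.89, -2.07, -2.09 and -2.0, with the largest between the arrays numbered 1. The 4 genes with an unadjusted p under 0.05 alone were Sema4b at -0.26 ± 0.104, Sema4d at -0.28 ± 0.123, Nrp2 at -0.21 ± 0.0835 and Plxna2 at 0.69 ± 0.220 (adjusted p = 0.484, 0.589, 0.492 and 0.240). The ranges of the genotypes did not overlap for Sema4b, Nrp2 and Plxna2 and overlapped for Sema4d. The share of all genes whose genotypes do not overlap was not computed, here or with LPS, so a lack of overlap sets no gene apart. Between arrays of the same number, Plxna2 (0.18 to 1.15) and Plxna1 (0.05 to 0.54) were higher in KO in 4 of 4 pairs. Nrp2 (-0.31 to -0.10), Sema4b (-0.51 to -0.12) and Plxnd1 (-0.20 to -0.08) were lower in 4 of 4. None of these genes was called, and the share of all genes with 4 equal signs was not computed. For Plxnb2, Plxnd1 and Nrp1 the differences were -0.05 ± 0.0977, -0.11 ± 0.0891 and 0.16 ± 0.145 (adjusted p = 0.955, 0.853 and 0.875), and for Plxna1 and Sema4c 0.27 ± 0.181 and 0.20 ± 0.181 (0.797 and 0.871).

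Array numbers paired the genotypes (deviations of same-numbered arrays correlated by 0.16 to 0.44), and with the number as a block 327 genes were called in place of 200, with no call among the 10 gained or lost. The count was 116 when KO array 1 or wild-type array 2 was left out and 128 without wild-type array 1, and Sema4a was called each time. In the 10 arrays with Xist above Kdm5d, where each KO group holds 1 array that is assumed to vary like the others, the difference of Sema4a was -2.07 (adjusted p = 9.01e-04).

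The third comparison, KO against wild type with LPS, found 2 of the 10 genes higher in KO cells, where 1.8% of all genes were, and 1 lower, where 1.26% of all genes were. In the fit of the 9969 genes at or above the median gene, 431 were higher and 257 lower. Of the 10 genes 3 were higher and 1 lower in that fit, where Sema4d also passed (limma adjusted p = 0.0437). The median log2 difference was 0.12 over the 10 genes and -0.01 over all genes. Plxna2 was 3.20-fold higher (1.68 ± 0.220, adjusted p = 2.41e-04) and Plxnb2 1.60-fold higher (0.68 ± 0.0977, adjusted p = 6.21e-04), while Sema4a was 2.10-fold lower (-1.07 ± 0.137, adjusted p = 2.01e-04). The genotypes did not overlap for any of these 3 genes. Between arrays of the same number Plxna2 differed by 2.11, 2.39, 1.21 and 1.01, Plxnb2 by 0.64, 0.79, 0.85 and 0.43, and Sema4a by -1.14, -1.05, -1.07 and -1.01. The pairs lay close to each other for Sema4a and further apart for Plxna2.

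Nrp1 and Sema4d stood near the threshold. Nrp1 was higher by 0.45 ± 0.145 in KO arrays with LPS, with no overlap, and missed the threshold (adjusted p = 0.128). With the array number as a block its SE was 0.0906 and it passed (adjusted p = 0.00766). The correlations of 0.19 to 0.52 between same-numbered arrays allow a block between genotypes, and that fit of all arrays links treatments too. With the block in only the 8 arrays compared Nrp1 also passed (adjusted p = 0.0146). Sema4d differed by 0.43 ± 0.123, also without overlap (adjusted p = 0.0685, and 0.0585 with the block). Sema4d passed in 6 of 28 alternatives, among them median centring of the arrays (adjusted p = 0.0448). Others were the fits without KO unstimulated array 2 (0.0381) or KO LPS array 4 (0.031). Its difference was 0.18 in the arrays with Xist above Kdm5d. The dimmer probe set of Sema4d averaged 7.75 ± 0.17 (SD, n = 4) in wild-type and 7.72 ± 0.12 in KO cells with LPS. For Plxnd1 the difference was 0.16 ± 0.0891, for Sema4b -0.13 ± 0.104, for Sema4c -0.10 ± 0.181, for Plxna1 0.08 ± 0.181 and for Nrp2 -0.06 ± 0.0835, with adjusted p of 0.605, 0.859, 0.991, 0.996 and 0.976.

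These values were also computed with the sex of the samples in view. In the arrays with Xist above Kdm5d the differences were 1.52 for Plxna2, 0.71 for Plxnb2 and -1.15 for Sema4a, and only Sema4a was called there (adjusted p = 0.135, 0.106 and 0.034). All 3 were called when sex was a term of the fit, at 1.55, 0.71 and -1.01. With sex and the array number together none of the 3 was, at 1.09 for Plxna2, 0.54 for Plxnb2 and -0.91 for Sema4a (adjusted p = 0.103, 0.107 and 0.0525). Except in the KO arrays numbered 4, genotype and sex coincide in all arrays and cannot be told apart. Over all genes, 950 were called with the block in place of 609, 308 without wild-type LPS array 2 and 394 without KO LPS array 1, and each of the 3 genes was called whichever single array was left out.

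**Figure D3:**
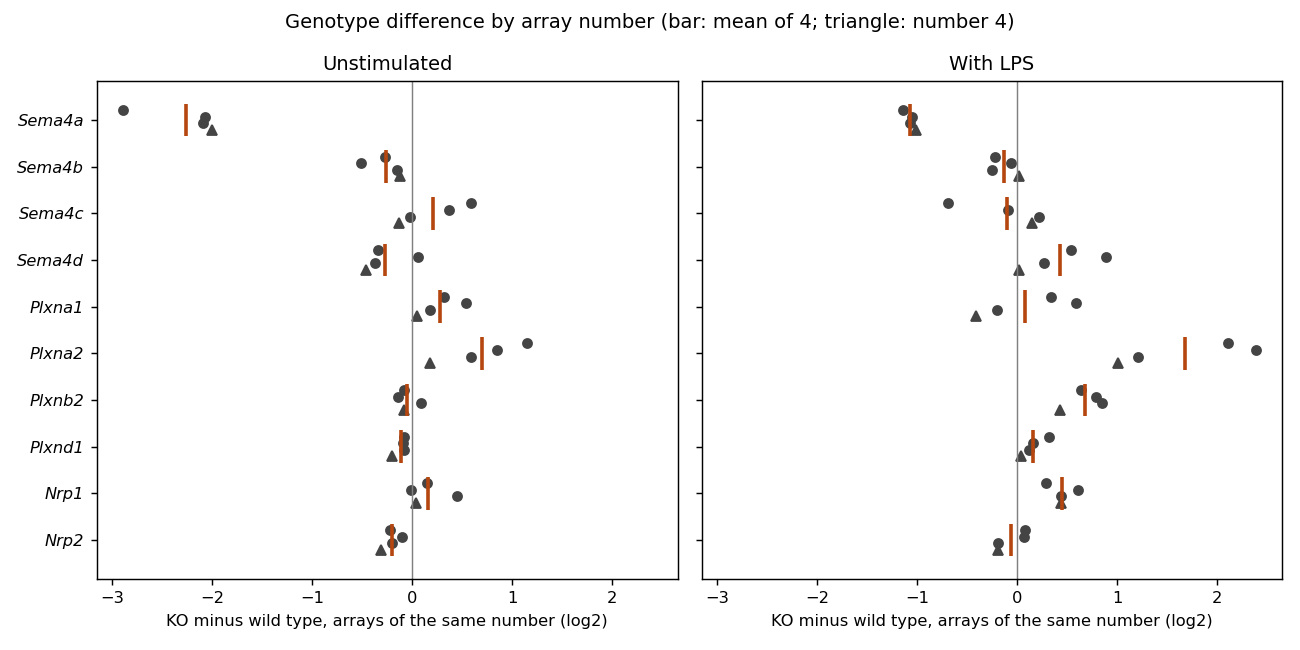
Log2 difference, KO minus wild type, within each array number (horizontal axis) for each gene, without LPS on the left and with LPS on the right, 4 points per gene with a triangle for number 4 and a bar at their mean. Sema4a lies at -2.0 or below without LPS and between -1.14 and -1.01 with it, and Plxna2 lies between 1.01 and 2.39 with LPS.

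**Figure D4:**
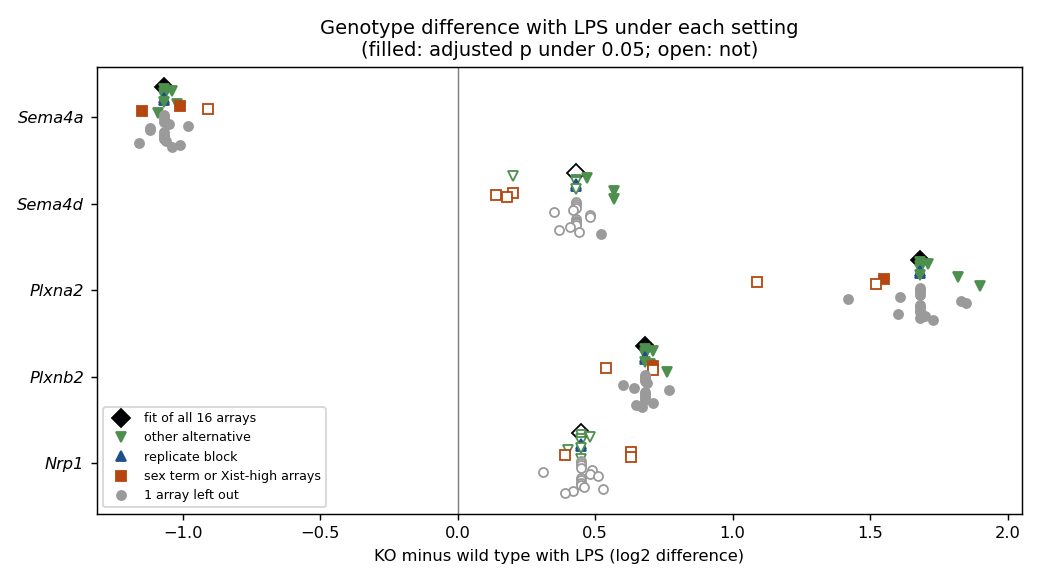
Log2 difference between KO and wild type with LPS (horizontal axis) for 5 genes under each setting of the analysis, filled where the adjusted p is under 0.05 and open where it is not. Sema4a, Plxna2 and Plxnb2 are filled in the fit of all 16 arrays and in every fit without 1 array, and open symbols of these 3 genes belong to settings with sex.

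The fourth comparison tested whether the LPS response itself differed between the genotypes. It did for Sema4a, whose response was larger in KO cells by 1.20 ± 0.194 (adjusted p = 0.00695), and for Plxnb2, whose fall was smaller in KO cells, a difference of 0.73 ± 0.138 (adjusted p = 0.0145). Thus 2 of 10 genes had a higher value in KO, where 0.988% of all genes did, and 0 of 10 a lower one, where 0.301% of all genes did (limma; Sema4a, Sema4d, Plxna2, Plxnb2 and Plxnd1, all positive, had an unadjusted p under 0.05). In the fit of the 9969 genes at or above the median gene, 272 had a higher value and 63 a lower one. Of the 10 genes 3 had a higher value in that fit, where Sema4d also passed (limma adjusted p = 0.0343). In the fit of all genes Sema4d, at 0.71 ± 0.173, missed the threshold (adjusted p = 0.0524). It passed with the array number as a block (0.0453). It also passed without KO unstimulated array 2 (0.0196), KO LPS array 4 (0.0302) or wild-type LPS array 4 (0.0455). Of 26 alternatives 10 gave a call and 16 did not, with differences from 0.41 to 0.82 over all of them. The dimmer probe set of Sema4d averaged 7.86 without and 7.75 with LPS in wild-type cells, and 7.71 and 7.72 in KO cells. For Plxna2, which was called in wild-type and not in KO cells, the difference in response was 0.99 ± 0.311 and did not pass (adjusted p = 0.169). For Plxnd1 it was 0.27 ± 0.126 (adjusted p = 0.48), for Nrp1 0.29 ± 0.204 (0.732), for Nrp2 0.15 ± 0.118 (0.771), for Sema4b 0.14 ± 0.147 (0.848), for Sema4c -0.30 ± 0.255 (0.792) and for Plxna1 -0.19 ± 0.256 (0.891).

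In the arrays with Xist above Kdm5d the difference in response was 0.92 for Sema4a and 0.73 for Plxnb2, neither of them called (adjusted p = 0.462 and 0.538), and 4 genes in all were called there in place of 257. With the array number as a block 451 were. The count was 133 to 149 without wild-type unstimulated array 2, wild-type LPS array 2, KO unstimulated array 1, KO LPS array 1 or KO LPS array 3, and 168 without KO LPS array 2. Sema4a and Plxnb2 were called whichever single array was left out.

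Ordered by group mean, Sema4a was highest in wild-type cells with LPS (11.10), then in wild-type cells without it (10.18) and KO cells with it (10.04), which overlapped, and lowest in KO cells without it (7.92). Plxna2 ran from KO cells without (9.71) and with LPS (9.46), whose ranges overlapped, over wild-type cells without it (9.02), which reached into the range of the KO cells with LPS, to wild-type cells with it (7.79), which stood apart. Plxnb2 ran from wild-type (12.44) and KO cells (12.39) without LPS, not separable, over KO cells with LPS (11.66) to wild-type cells with LPS (10.98). Plxnd1 and Nrp1 had the same order of treatments, with the genotypes overlapping in each state except for Nrp1 with LPS (9.31 in KO and 8.86 in wild-type cells). Nrp2 was highest in the LPS groups (12.22 in wild-type and 12.16 in KO cells, overlapping), then in wild-type (11.42) and KO cells (11.21) without LPS. Neighbouring groups overlapped throughout for Plxna1 and Sema4c.

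The genes around these ligands and receptors were read from lists of 78 others, of which 77 were measured. Beside the counts below, LPS raised 14% and lowered 16.8% of all genes in wild-type cells. In KO cells it raised 12% and lowered 12.7% of all genes. Of 16 other semaphorins, Sema6b, a ligand of class A plexins, fell in both genotypes, by 0.67 ± 0.0794 and 0.64 ± 0.0794 in the wild type and the knockout (adjusted p = 2.22e-06 and 4.60e-06), and the other 15 were not called. None of the 16 was called between genotypes (limma; 1, 0 and 0 had an unadjusted p under 0.05 without LPS, with LPS and for the difference in response). With the array number as a block Sema3c, a secreted ligand of neuropilins, was called lower in KO cells with LPS (-0.35, adjusted p = 0.0223). Of 5 other plexins, Plxnc1, the receptor of Sema7a, fell 3.69-fold in wild-type cells (-1.88 ± 0.15, adjusted p = 1.33e-08) and 2.30-fold in KO cells (-1.20 ± 0.15, adjusted p = 5.11e-06). With LPS its level was higher in KO by 0.54 ± 0.15, with overlapping ranges, which did not pass (adjusted p = 0.0616), and passed with the array number as a block (0.0368). Plxnb3 and Plxnb1 were not called in either genotype.

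Of 13 other receptors and co-receptors, 4 rose and 4 fell with LPS in wild-type cells, and 5 rose and 2 fell in KO cells. Kdr, the VEGF receptor that Nrp1 assists, rose 6.42-fold in wild-type cells (2.68 ± 0.149, adjusted p = 1.17e-10) and 5.50-fold in KO cells (2.46 ± 0.149, adjusted p = 5.65e-10). Trem2, the partner of plexin-A1, fell by 1.31 ± 0.15 and 1.03 ± 0.15 (adjusted p = 1.34e-06 and 3.24e-05). In the arrays with Xist above Kdm5d, with 1 KO array per group, its difference in KO cells was -0.83. Cd72, an inhibitory receptor that binds Sema4d, was the listed receptor called between genotypes. It was 2.62-fold lower in KO cells without LPS (-1.39 ± 0.168, adjusted p = 1.22e-04), and its arrays did not overlap. LPS lowered it in wild-type cells by 0.87 ± 0.168, whereas it rose by 0.56 ± 0.168 in KO cells (adjusted p = 4.32e-04 and 0.0176), and the responses differed by 1.44 ± 0.238 (adjusted p = 0.00749; in the arrays with Xist above Kdm5d 1.37 and not called, adjusted p = 0.183). The stimulated and unstimulated KO arrays overlapped, and the rise there was not called without KO unstimulated array 3 (0.47, adjusted p = 0.0707), KO LPS array 1 (0.50, 0.0602) or KO LPS array 2 (0.43, 0.0771). With LPS the genotypes lay at 11.87 in KO and 11.82 in wild-type cells (0.05 ± 0.168, adjusted p = 0.998).

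Of 7 growth factors that bind neuropilins or act beside them, 1 rose and 3 fell in wild-type cells and 3 fell in KO cells. Hgf, a growth factor whose receptor Met associates with plexin-B1, fell 3.99-fold and 4.61-fold (-2.0 ± 0.159 and -2.21 ± 0.159, adjusted p = 1.28e-08 and 4.88e-09), and Vegfb, a ligand of Nrp1, fell by 0.63 ± 0.122 and 0.40 ± 0.122 (adjusted p = 4.58e-04 and 0.0192). In KO cells Vegfb was not called without KO unstimulated array 4 (adjusted p = 0.0581) or KO LPS array 1 (0.0702). Its difference there was -0.37 in the arrays with Xist above Kdm5d, with 1 KO array per group. None of the 7 was called between genotypes (limma; 2, 1 and 0 had an unadjusted p under 0.05 in the 3 genotype comparisons). Hgf was higher in KO by 0.66 ± 0.159 without and 0.45 ± 0.159 with LPS, without overlap (adjusted p = 0.0572 and 0.184). Both differences passed with array weights (adjusted p = 0.0226 and 0.014) and neither did with the array number as a block.

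Of 5 enzymes that cut semaphorins or their precursors, 3 rose and 1 fell in wild-type cells and 3 rose and 2 fell in KO cells. Mmp14, a membrane protease that can release Sema4d from the cell surface, rose 12.9-fold and 14.3-fold (3.68 ± 0.213 and 3.84 ± 0.213, adjusted p = 1.95e-10 and 1.78e-10). Adamts4 rose by 2.55 ± 0.293 and 1.64 ± 0.293 (adjusted p = 1.38e-06 and 2.72e-04), and Adam17 by 0.49 ± 0.0902 and 0.67 ± 0.0902 (2.80e-04 and 1.25e-05). In the arrays with Xist above Kdm5d, with 1 KO array per group, the rise of Adamts4 in KO cells was 1.32. Furin, a convertase that cleaves semaphorin precursors, was 1.66-fold lower in KO cells with LPS (-0.73 ± 0.174, adjusted p = 0.0258). That call was lost without wild-type LPS array 1 or 2 or KO LPS array 1, 2 or 4 (-0.72 to -0.61, adjusted p = 0.0581 to 0.106) and in the arrays with Xist above Kdm5d (-0.77, 0.211). Furin fell in KO cells by 0.93 ± 0.174 (adjusted p = 4.22e-04), its change in wild-type cells was -0.22 ± 0.174 (adjusted p = 0.38), and the difference between these responses did not pass (adjusted p = 0.231).

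Of 31 measured genes of plexin signalling, 6 rose and 8 fell in wild-type cells and 4 rose and 6 fell in KO cells. Rras2, a small GTPase of the R-Ras family, rose 12.4-fold and 12.2-fold (3.63 ± 0.197 and 3.61 ± 0.197, adjusted p = 8.91e-11 and 1.38e-10). Fes, a tyrosine kinase that acts below plexin-A receptors, fell by 1.5 ± 0.146 and 1.20 ± 0.146 (adjusted p = 1.69e-07 and 3.79e-06), and Mical1, an oxidoreductase that takes actin filaments apart, by 1.10 ± 0.141 and 1.47 ± 0.141 (5.32e-06 and 1.99e-07). Limk1, a kinase that inactivates cofilin, was called between genotypes with LPS, higher in KO by 0.40 ± 0.105 (adjusted p = 0.0429). That call was lost in 11 of the 16 fits without 1 array, each array with LPS except KO array 4 among them (adjusted p = 0.0547 to 0.145), and its difference was 0.25 in the arrays with Xist above Kdm5d. Across all 77 genes, 1 was called between genotypes without LPS, 2 with LPS and 1 for the difference in response. Over all 19937 genes these counts were 200, 609 and 257.

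**Figure D5:**
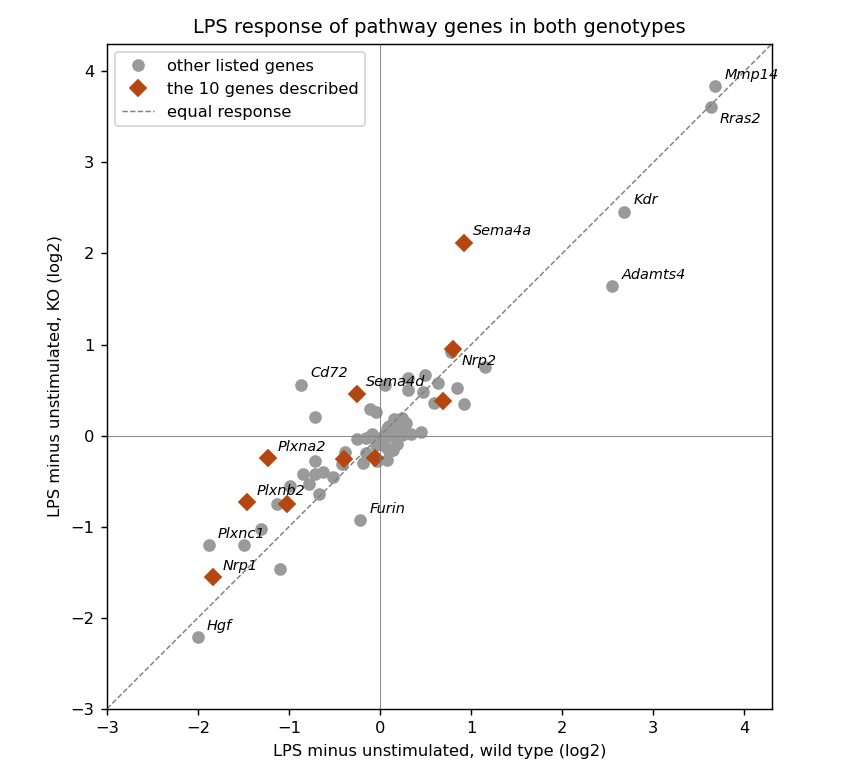
LPS response in wild-type (horizontal) and KO macrophages (vertical), both as log2 differences, of the 10 genes (diamonds) and 77 other listed genes (circles), with a dashed line of equal response. Sema4a lies above the line at 0.92 and 2.12, Cd72 at -0.87 and 0.56, and Kdr, Mmp14 and Rras2 lie near the line.

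The genes whose levels ran most like those of the 3 genes called between genotypes were found by the root mean square (RMS) difference of log2 levels over the 16 arrays, each gene centred on its own mean. For Sema4a, whose own SD over the arrays was 1.22, they were Ms4a6b, Dram1 and Cd14, at RMS differences of 0.472, 0.479 and 0.512. Cd14, the LPS co-receptor, averaged 11.78 and 12.82 in wild-type cells without and with LPS and 10.58 and 12.61 in KO cells. For Plxna2 (SD 0.83) they were Mgst1, Il12rb2 and Gpr162, at 0.287, 0.322 and 0.39. For Plxnb2 (SD 0.629) they were Adap2, Celf2 and Ndrg3, at 0.116, 0.133 and 0.14, and Adap2 averaged 11.25 and 9.70 in wild-type cells without and with LPS and 11.13 and 10.42 in KO cells. Within the 10 genes the closest pair was Plxnb2 and Plxnd1, at 0.262.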

How the data were processed

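Total RNA of 16 samples was labelled with biotin and hybridised to 1-channel Affymetrix arrays. The deposited values are log2 levels per probe set, which the authors made, per the submitters' processing notes, by RMA (robust multi-array average) in no stated version. RMA brings arrays to a common distribution and compresses changes of dim genes. Of 34760 probe sets, 21640 had 1 gene in the platform annotation, 1321 had several and 11799 were not listed. The brightest probe set stood for each of 19937 genes. All 10 genes matched RefSeq by identifier.

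One linear model with 4 group means took all 16 arrays (limma 3.58.1 in R 4.3.3, functions lmFit and eBayes; 12 residual degrees of freedom), with Benjamini-Hochberg adjustment over all genes and a call at adjusted p under 0.05. An SE is the moderated one of this fit. The number of arrays limits the precision. Array medians lay between 6.76 and 6.86. The procedure was tested on simulated data. The genes and lists were chosen with earlier results of these data known. Alternatives for the other listed genes were added after seeing the data. Alternatives changed the probe set rule, scaling, dim gene filter, arrays, block, sex term, weights and prior.

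The numbers of the arrays were taken from their titles. Same-numbered arrays of the 2 genotypes deviated together from their group means (correlations of at least 0.16), above the minimum of 0.1, so the numbers paired the genotypes. Between treatments 1 pair in each genotype lay below it (0.05 and -0.06). The others lay above it, at 0.25 to 0.43 in wild-type and 0.14 to 0.56 in KO cells. Pairing between treatments was therefore taken as undecided. The block in the fit of all arrays links treatments too, so its values rest in part on that link. With only the 8 arrays of a genotype comparison the block links genotypes alone, and it called 205 genes without LPS and 1149 with it. Named genes were the 10 members, listed genes called between genotypes, the 2 with the smallest p per list and LPS contrast, and the 3 nearest genes. Sema3c, Sema6d, Plxnb1 and Plxnb3 of these had no called value. Nfat5, in the rule as a check of the arrays, had 1 probe set. It averaged 9.39 and 9.04 in unstimulated wild-type and KO arrays, whose ranges overlapped (9.15 to 9.67 and 8.93 to 9.20). With LPS it averaged 10.07 and 9.09, and the ranges did not overlap (9.80 to 10.56 and 8.67 to 9.29).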

Additional observations from a re-analysis of the deposited data

Results flagged for a closer look

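In 40 sets of 4 arrays (10 genes in 4 groups), 2 held an array far from the other 3, and chance gives about 1 in 20. Nrp1 was low in wild-type LPS array 2, at 8.46 against 8.95 to 9.04 in the others. Nrp2 was high in wild-type LPS array 3, at 12.39 against 12.15 to 12.18. Both genes kept their calls whichever array was left out.

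The LPS response differed between genotypes for Sema4a (1.20, adjusted p = 0.00695 in limma) and for Plxnb2 (0.73, adjusted p = 0.0145). With only the arrays in which Xist exceeded Kdm5d, they were 0.92 and 0.73, and neither was called.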

How the results depend on the processing

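Of 20 called values of the 10 genes, none lost its call in the 16 fits without 1 array, which gave 320 values. Under the other alternatives 10 of 236 values lost the call. No called value changed direction among 1380 values. Besides those given above, the calls of Sema4d and Plxnb2 for LPS in KO cells were lost in the arrays with Xist above Kdm5d (0.42 and -0.73, adjusted p = 0.259 and 0.0633). In 24 cases a value not called passed, for Sema4d, Sema4b or Nrp1. Between genotypes with LPS, 0 of the 10 genes were called with the sex term and replicate block together (142 of all genes were) and 1 in the arrays with Xist above Kdm5d, where 0 were called for the difference in response.

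Genes called without LPS numbered 91 with only the 8 arrays compared, 327 with the replicate block, 359 with the sex term, 84 with sex term and block and 58 in the Xist-high arrays, with 116 to 209 when 1 array was left out. With LPS they numbered 950 with the replicate block, 1149 with the block in the 8 arrays, 1419 with array weights and 89 in the Xist-high arrays, with 308 to 659 when 1 array was left out. For the difference in response they numbered 451 with the replicate block, 492 with array weights, 469 with sex term and block, 4 in the Xist-high arrays and 153 without the arrays numbered 4, with 133 to 271 when 1 array was left out. For LPS in KO cells 1962 were called in the Xist-high arrays. That fit has fewer samples; the other causes were not tested. For LPS the block added no call among the 10 genes in wild-type cells and that of Sema4b in KO cells (adjusted p = 0.0251). Beside that and those of Nrp1 and Sema4d above, the replicate block changed no call of the 10 genes. For 19 other named genes, under alternatives chosen after seeing the data, 37 of 2617 values lost a call, 40 gained one and none reversed.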

Other observations

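Among the 4 wild-type arrays with LPS, array 2 held the lowest values of Sema4b (7.27), Sema4c (7.85), Sema4d (10.95), Plxna2 (7.01), Plxnb2 (10.75), Nrp1 (8.46) and Nrp2 (12.15) and the highest of Sema4a (11.36) and Plxnd1 (11.33). It also held the highest level of Nfat5 (10.56, against 9.80 to 9.97 in the other 3). This array was chosen for mention after its values were seen.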
